A study of Homo sapiens with 9 samples.

Results

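The TAM receptors TYRO3, AXL and MERTK and their ligands GAS6 and PROS1 were followed in MDA-MB-231 cells after knockdown of MILIP, a long noncoding RNA. These 5 genes were taken by gene symbol from a table of 60612 genes, and all 5 had enough counts to be tested among 15345 genes. They were chosen with results of the same libraries known, in which AXL was among the transcripts lower with both siRNAs, so their differences from control are given as descriptions without a test. RNA was sequenced 48 hours after transfection with MILIP siRNA2, MILIP siRNA1 or a negative control siRNA, with 3 libraries per group and 9 in all. All groups are the same unmodified line, a human triple-negative breast cancer line of mesenchymal type, and all were transfected. Whether the libraries of 1 group are separate cultures is not stated in the labels, and p-values therefore cover the spread among these 9 libraries alone, which could be technical. The treatment protocol names siRNAs against PLANE, although MILIP is the target given by the series title and by each sample's treatment label.

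TAM receptors are receptor tyrosine kinases with paired immunoglobulin-like and fibronectin-like domains outside the cell. Their ligands carry an amino-terminal domain of vitamin K-dependent carboxylated glutamates, the Gla domain, which binds phosphatidylserine on dying cells and vesicles and so bridges these membranes to the receptor. GAS6 binds all of the receptors, while PROS1, better known as the anticoagulant protein S of plasma, acts through TYRO3 and MERTK. AXL is abundant in mesenchymal breast cancer lines, where it is known for its part in migration and drug tolerance, and MERTK is best known from the uptake of dead cells by macrophages.

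Depth was 15281220 to 19759371 counts per library, and 3 counts, the limit that a count of 0 allows, correspond to 0.152 to 0.198 counts per 1e+06 counts (CPM), covering counting error only. MILIP is listed as MAFG-DT (ENSG00000265688). It had 0.616 ± 0.316 CPM with siRNA2, 1.24 ± 0.641 CPM with siRNA1 and 8.41 ± 0.254 CPM in control libraries (SD, n = 3 each), so that 7.32% was left with siRNA2 and 14.7% with siRNA1. The exact permutation test (two-sided) could not go below p = 0.1 with 3 libraries a group, and it gave p = 0.1 for siRNA2 as well as for siRNA1. The 4 mesenchymal markers of the line summed to 891.32 to 932.21 FPKM (fragments per kilobase of exonic length per 1e+06 counts) with siRNA2, 950.41 to 1012.4 FPKM with siRNA1 and 994.25 to 1059.5 FPKM in control libraries. VIM, the most abundant of them, had a log2 fold change of -0.23 with siRNA2 and -0.049 with siRNA1, while FN1 (0.62) and CD44 (0.17) were higher with siRNA2, and with siRNA1 FN1 (-0.35) and CD44 (-0.34) were lower. The progesterone receptor PGR had at most 1 count in any library and the oestrogen receptor ESR1 at most 17, while ERBB2, which encodes HER2, was detected at 6.93 FPKM with siRNA2, 5.37 FPKM with siRNA1 and 5.90 FPKM in control libraries. In bulk RNA a change in the number of cells of a kind and a change in RNA per cell cannot be told apart.

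AXL (ENSG00000167601, chromosome 19, positions 41219223 to 41261766, plus strand, GRCh38) was the receptor with the largest differences. Its level was 285, 271 and 263 CPM in the siRNA2 libraries, 105, 98.8 and 106 CPM in the siRNA1 libraries, and 998, 1041 and 973 CPM in the control libraries. The groups did not overlap, with every siRNA1 library lowest and every control library highest. The group means were 273 ± 11.3 CPM with siRNA2, 103 ± 3.92 CPM with siRNA1 and 1004 ± 34.7 CPM in control libraries (SD, n = 3 each), so 27.2% of the control level was left with siRNA2 and 10.3% with siRNA1. The log2 fold change against control was -1.88 (SE 0.0556) with siRNA2 and -3.28 (SE 0.0595) with siRNA1. Counted from the lowest of 15345 genes, these fold changes stood at rank 97 with siRNA2 and rank 11 with siRNA1. The siRNA with more AXL left was thus the one with less MILIP left by group mean, although single MILIP libraries of siRNA2 and siRNA1 overlapped. The siRNA2 against siRNA1 comparison was not the one that chose the genes, but it reuses the siRNA libraries of that choice. Its p-values for the 5 genes are thus not from separate data. In this comparison AXL was higher with siRNA2 by 1.40 on the log2 scale (SE 0.0568, 95% interval 1.29 to 1.52, adjusted p = 1.56e-16, from the quasi-likelihood test of edgeR, Benjamini-Hochberg adjusted). MILIP itself was lower with siRNA2 than with siRNA1 in that comparison (log2 fold change -0.99, adjusted p = 0.0264), a call lost in 6 of 17 alternatives. Without siRNA1 replicate 3 its adjusted p was 0.308, without siRNA2 replicate 3 it was 0.121, and without siRNA2 replicate 1 it was 0.083.

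**Figure D1:**
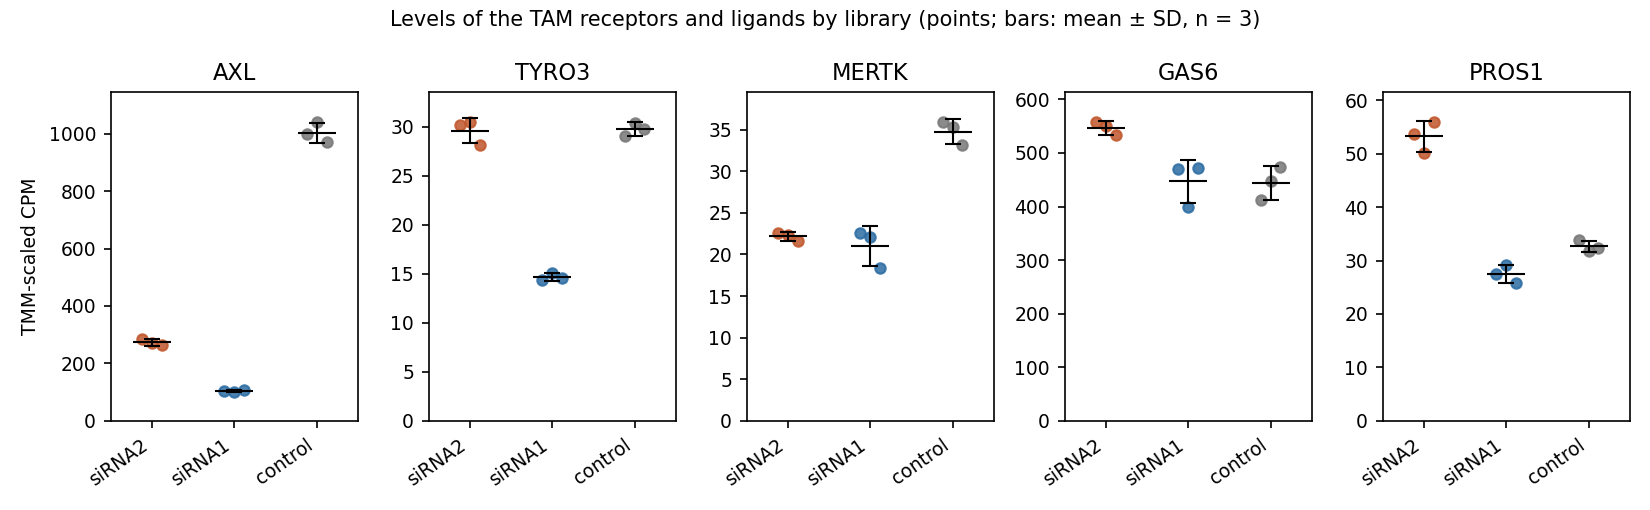
Level of each TAM receptor and ligand in TMM-scaled CPM (vertical axis, starting at 0), with 1 point per library and bars for the mean ± SD of 3 libraries, for siRNA2, siRNA1 and control. AXL averages 273 CPM with siRNA2, 103 CPM with siRNA1 and 1004 CPM in control libraries, TYRO3 is low with siRNA1 alone of the 3 groups, and PROS1 is highest with siRNA2.

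The AXL transcript carries 7-base words that stand out in each siRNA's own fold changes, so these stretches are shown beside the MILIP stretches that hold the same word. Words in the annotated 3' UTRs of 12625 tested genes were ranked by a t statistic of the log2 fold changes of genes with and without the word. This statistic weighs the size of the shift together with the number of genes. The lowest t statistic of 16267 words belonged to GACCCTA with siRNA2 and AATTCCA with siRNA1. Both words also occur in MILIP. The siRNA2 word stands in 732 of these genes (5.8%), whose median log2 fold change with siRNA2 was -0.29, against 0.014 in genes without it. The siRNA1 word stands in 2254 genes (17.9%), whose median log2 fold change with siRNA1 was -0.21, against 0.039 in genes without it. The words were picked on these same fold changes, so these medians are no separate evidence, and a match is a description of letters, not a site or a cause. The siRNA sequences were not used here. Capitals mark the word in each stretch of 29 bases, read 5′ to 3′ from GENCODE v29 transcripts, and each transcript was searched on its own sense strand. The genes with printed stretches all lie on the plus strand.
AXL with the siRNA2 word: caacccagccaGACCCTAaggattcctgt
MILIP with the siRNA2 word: ggtaacatagaGACCCTAtcgctacaaga
TYRO3 with the siRNA2 word: aggccccctggGACCCTAcaaactgtcct
AXL with the siRNA1 word: taaggacctgaAATTCCAaagtctctaat
MILIP with the siRNA1 word: ggagtcagggcAATTCCAaccaagaaact
In AXL the siRNA2 word lies in the coding part of exon 20 of 20, in the stretch chr19:41259747-41259775 of GRCh38, and the siRNA1 word lies in the 3' UTR of the same exon, at chr19:41260239-41260267. The MILIP stretches lie in exon 2 of 2, at chr17:81930473-81930501 for siRNA2 and chr17:81930349-81930377 for siRNA1. TYRO3 holds the siRNA2 word in the coding exon 8 of 19, at chr15:41568311-41568339. Around each word the identity with MILIP was short. The run of identical bases was 8 for each AXL stretch and 7 for the TYRO3 stretch, and 14 of 29 bases matched for AXL with the siRNA2 word, 13 of 29 for AXL with the siRNA1 word and 10 of 29 for TYRO3. Among the 2254 genes whose 3' UTR holds the siRNA1 word, AXL had rank 4 from the lowest log2 fold change with siRNA1. AXL and the word were both picked with these fold changes known, so a low rank was fixed in advance and is no separate evidence. The siRNA1 word occurs in 17.2% of the 1833 annotated 3' UTRs within 20% of the AXL 3' UTR's length of 1862 bases, and the siRNA2 word in 8.28% of the 1715 coding regions within 20% of the AXL coding length of 2685 bases. In the transcript with the longest 3' UTR of each gene, MERTK, GAS6 and PROS1 hold neither word, and TYRO3 does not hold the siRNA1 word.

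TYRO3 (ENSG00000092445, chromosome 15, positions 41557675 to 41583589, plus strand) differed between the siRNAs. It had 30.2, 30.5 and 28.1 CPM in the siRNA2 libraries, 14.4, 15.1 and 14.6 CPM in the siRNA1 libraries, and 29.1, 30.4 and 29.8 CPM in the control libraries. The siRNA2 and control libraries overlapped, and every siRNA1 library lay far below both. Its log2 fold change against control was -0.007 (SE 0.0817) with siRNA2 and -1.02 (SE 0.0875) with siRNA1, where 49.3% of the control level was left. TYRO3 was higher with siRNA2 than with siRNA1 by 1.01 on the log2 scale (SE 0.0867, 95% interval 0.83 to 1.19, adjusted p = 2.66e-10, edgeR).

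MERTK (ENSG00000153208, chromosome 2, positions 111898607 to 112029561, plus strand) was lower with both siRNAs by a similar amount. Its level was 22.6, 22.3 and 21.6 CPM in the siRNA2 libraries, 22.6, 22.1 and 18.3 CPM in the siRNA1 libraries, and 35.9, 35.3 and 33.1 CPM in the control libraries. The siRNA2 and siRNA1 libraries overlapped each other, and all of them lay below the control libraries. Against control the log2 fold change was -0.65 (SE 0.0899) with siRNA2 and -0.73 (SE 0.0908) with siRNA1, leaving 63.7% of the control level with siRNA2 and 60.4% with siRNA1. The siRNA2 against siRNA1 comparison did not pass (log2 fold change 0.08, 95% interval -0.11 to 0.27, adjusted p = 0.47, edgeR), which limits a difference between the siRNAs to this interval and does not show that there was none. Without siRNA1 replicate 3, its lowest library, that difference was -0.014.

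Of the receptors, AXL made up nearly all of the receptor transcript in control libraries, counted in FPKM. AXL stood at 54.49, 52.66 and 51.34 FPKM in the siRNA2 libraries, 20.58, 19.59 and 20.83 FPKM in the siRNA1 libraries, and 194.33, 201.01 and 187.01 FPKM in the control libraries. MERTK followed at 4.81 ± 0.0643 FPKM with siRNA2, 4.65 ± 0.52 FPKM with siRNA1 and 7.55 ± 0.363 FPKM in control libraries. TYRO3 was the lowest of the receptors in every group, at 2.73 ± 0.101 FPKM with siRNA2, 1.38 ± 0.0458 FPKM with siRNA1 and 2.74 ± 0.0513 FPKM in control libraries (SD, n = 3 each). The order of AXL, MERTK and TYRO3 was thus kept in each group mean, but the distances shrank. The AXL share of summed receptor FPKM was 87.5 ± 0.253% with siRNA2, 77.1 ± 2.0% with siRNA1 and 94.96 ± 0.109% in control libraries. The MERTK share was 7.98 ± 0.155% with siRNA2, 17.6 ± 1.93% with siRNA1 and 3.69 ± 0.124% in control libraries. Groups did not overlap in either share. These shares follow from the fold changes above and carry no test of their own.

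**Figure D2:**
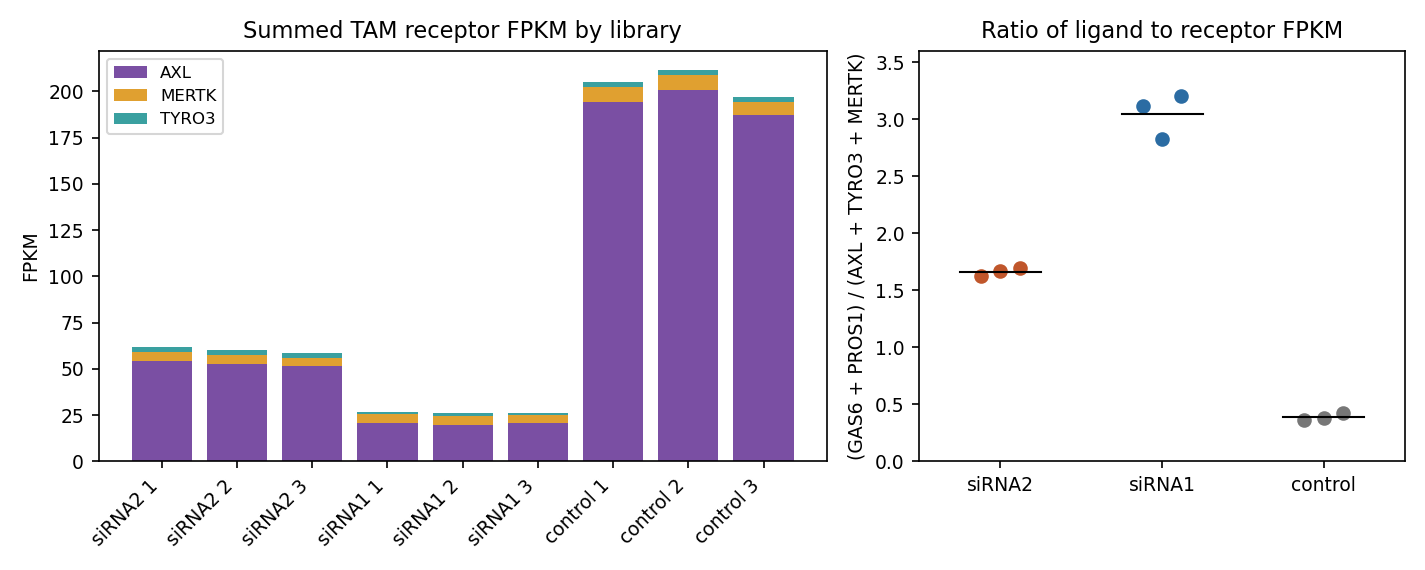
Left, stacked bars of AXL, MERTK and TYRO3 in FPKM for each of 9 libraries, from 0. Right, the ratio of summed ligand FPKM to summed receptor FPKM, with 1 point per library and a line at the group mean, which was 1.66 with siRNA2, 3.05 with siRNA1 and 0.389 in control libraries.

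GAS6 (ENSG00000183087, chromosome 13, positions 113820549 to 113864076, minus strand), the ligand of all TAM receptors, was the more abundant ligand. Its level was 558, 549.98 and 533 CPM in the siRNA2 libraries, 469.7, 399.9 and 471 CPM in the siRNA1 libraries, and 412, 447 and 474 CPM in the control libraries. All siRNA2 libraries lay above all others, and the siRNA1 and control libraries overlapped. The log2 fold change against control was 0.30 (SE 0.0636) with siRNA2 and 0.0090 (SE 0.0637) with siRNA1. Between the siRNAs GAS6 was higher with siRNA2 by 0.29 (SE 0.0636, 95% interval 0.16 to 0.42, adjusted p = 0.000323, edgeR). This is the smallest of the differences between the siRNAs that passed among the 5 genes, at 1.22-fold.

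Transcripts next to GAS6 were looked at because they could share its reads. GAS6-AS1, which overlaps GAS6 on the opposite strand, had 28 to 105 counts per library, against 6668 to 10833 for GAS6. GAS6-AS1 averaged 2.23 ± 0.302 CPM with siRNA2, 4.66 ± 0.639 CPM with siRNA1 and 2.20 ± 0.567 CPM in control libraries. It did not pass with siRNA2 (log2 fold change 0.014, adjusted p = 0.964, edgeR) and rose with siRNA1 (1.09, adjusted p = 0.000174). Its direction between the siRNAs was opposite to that of GAS6 (-1.07, adjusted p = 0.000103). GAS6-DT, which starts 36 bases away on the opposite strand, averaged 11.9 ± 0.603 CPM with siRNA2, 7.57 ± 1.26 CPM with siRNA1 and 7.74 ± 1.26 CPM in control libraries. GAS6-DT rose with siRNA2 (log2 fold change 0.63, adjusted p = 0.000354, edgeR), did not pass with siRNA1 (-0.029, adjusted p = 0.884), and was higher with siRNA2 than with siRNA1 (0.66, adjusted p = 0.000171). No source used here says whether the counting used strand, and reads in overlapping stretches could belong to either gene.

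PROS1 (ENSG00000184500, chromosome 3, positions 93873051 to 93980003, minus strand) had opposite directions with the siRNAs. It had 53.7, 50.1 and 56.0 CPM in the siRNA2 libraries, 27.4, 29.3 and 25.8 CPM in the siRNA1 libraries, and 33.8, 31.8 and 32.4 CPM in the control libraries. The 3 groups did not overlap, with siRNA2 highest and siRNA1 lowest. Its log2 fold change against control was 0.70 (SE 0.0778) with siRNA2 and -0.25 (SE 0.0813) with siRNA1. The siRNA1 difference was the smaller, at -0.299 to -0.204 when 1 library was left out, against 0.669 to 0.75 with siRNA2. PROS1 was higher with siRNA2 than with siRNA1 by 0.95 (SE 0.0784, 95% interval 0.79 to 1.12, adjusted p = 1.23e-10, edgeR). PROS2P, a pseudogene of PROS1 that could take its reads, had 0 counts in all 9 libraries.

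In FPKM, which divide by exonic size, the ligands together exceeded the receptors in both siRNA groups but not in control libraries. Summed ligand FPKM was 100.3 ± 0.76 with siRNA2, 80.4 ± 6.08 with siRNA1 and 79.4 ± 4.5 in control libraries. GAS6 made up 90.0% of it with siRNA2, 93.4% with siRNA1 and 92.2% in control libraries. Summed receptor FPKM was 60.4 ± 1.69 with siRNA2, 26.4 ± 0.48 with siRNA1 and 204 ± 7.29 in control libraries. The siRNA1 and control libraries overlapped in the ligand sum, while no groups overlapped in the receptor sum. The ratio of ligand to receptor FPKM was 1.66 ± 0.0349 with siRNA2, 3.05 ± 0.196 with siRNA1 and 0.389 ± 0.0322 in control libraries (SD, n = 3 each). The ratio of GAS6 to AXL FPKM was 1.71 ± 0.0358 with siRNA2, 3.69 ± 0.202 with siRNA1 and 0.378 ± 0.0335 in control libraries. These ratios depend on the length used. The exonic size was 6015 bases for GAS6, while its transcript GAS6-201 has 2490. For AXL these lengths were 5134 and 4737 bases. A shorter GAS6 length alone would raise each ratio, which would keep ligands above receptors with either siRNA. The order in control libraries was not tested with other lengths, and the lengths of the transcripts present are not known here. The lengths are the same in all groups. These are ratios of transcripts, and proteins were not measured.

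**Figure D3:**
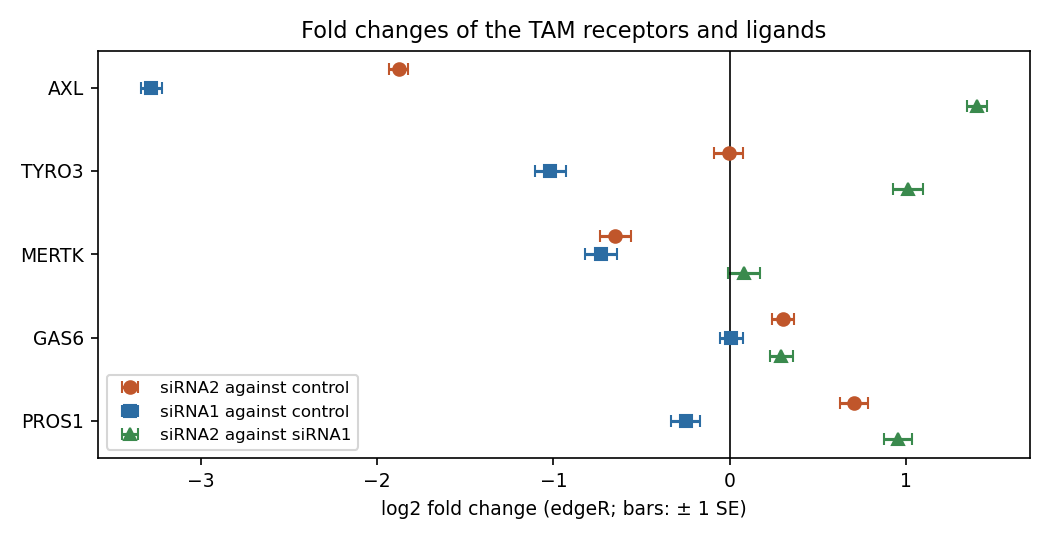
Log2 fold change of each gene from the edgeR fit (horizontal axis, bars ± 1 SE) for siRNA2 against control (circles), siRNA1 against control (squares) and siRNA2 against siRNA1 (triangles). AXL is lowest, at -1.88 with siRNA2 and -3.28 with siRNA1, and TYRO3, GAS6 and PROS1 differ between the siRNAs while MERTK does not pass.

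Side by side, all GAS6 and PROS1 libraries of siRNA2 lay above and all AXL and MERTK libraries of siRNA2 below the control libraries. All AXL, TYRO3, MERTK and PROS1 libraries of siRNA1 lay below the control libraries. Nothing is read from these counts of genes, since the genes were chosen on these comparisons, which also share their control libraries. The shares that follow go by adjusted p, a measure unlike libraries that do not overlap. Over all 15345 tested genes 56.1% passed an adjusted p of 0.05 with siRNA2 against control, 27.2% higher and 28.9% lower. With siRNA1 against control 50.4% of tested genes passed, 25.1% higher and 25.3% lower. With siRNA2 against siRNA1, which did not choose the genes but reuses the siRNA libraries of that choice, 4 of the 5 passed. AXL, TYRO3, GAS6 and PROS1 passed, all higher with siRNA2, where 60.4% of tested genes passed, 28.4% higher and 32% lower with siRNA2.

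Markers of other cell types moved between these groups as well. Macrophage markers summed to 7.33 to 7.98 FPKM with siRNA2, 1.7 to 2.66 FPKM with siRNA1 and 2.02 to 2.5 FPKM in control libraries. Of the 7 macrophage markers CD14, CD68 and CSF1R were higher with siRNA2 than in control libraries, while PTPRC, which marks leukocytes, had at most 1 count in any library. Fibroblast markers summed to 7.62 to 7.92 FPKM with siRNA2, 5.71 to 6.66 FPKM with siRNA1 and 0.92 to 1.29 FPKM in control libraries, with COL1A1 and PDGFRB higher with both siRNAs and LUM at 0 or 1 count. The 6 epithelial markers summed to 208 to 217 FPKM with siRNA2, 406 to 456 FPKM with siRNA1 and 217 to 242 FPKM in control libraries, with KRT8 and KRT18 as their most abundant genes. The 4 endothelial markers summed to 1.09 to 1.27 FPKM with siRNA2, 0.5 to 0.69 FPKM with siRNA1 and 0.62 to 0.96 FPKM in control libraries. PECAM1 held most of that sum, and it rose with siRNA2 (log2 fold change 0.62, adjusted p = 0.00275, edgeR) and fell with siRNA1 (-0.62, adjusted p = 0.00803). The part of these markers in the TAM results was not tested.

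By the likeness of their levels over the 9 libraries, each set relative to its control mean, the genes nearest to AXL among 13650 were DSCAM (root mean square difference 0.384 on the log2 scale), LINC00707 (0.481), LDLRAD3 (0.617), ADAMTS6 (0.625) and STOX1 (0.642). AXL thus had no near neighbour in pattern at its own level. DSCAM averaged 2.83 CPM with siRNA2, 0.899 CPM with siRNA1 and 7.67 CPM in control libraries, far below AXL. LDLRAD3, the most abundant of them, averaged 16.1 CPM with siRNA2, 6.29 CPM with siRNA1 and 36.1 CPM in control libraries. The other members had closer matches. TYRO3 was nearest to ODC1 (0.0683), PPP2R2C (0.071) and XPO7 (0.0727), and MERTK to PPP1R18 (0.0919), GADD45A (0.0957) and ELOA (0.0971). GAS6 was nearest to RAD9A (0.0432), NUDT22 (0.0494) and CCDC130 (0.0512), and PROS1 to ABI1 (0.0579), RAB18 (0.061) and SNX9 (0.0633). ODC1, the polyamine enzyme ornithine decarboxylase, averaged 484 CPM with siRNA2, 245 CPM with siRNA1 and 506 CPM in control libraries, a pattern over groups like that of TYRO3. Among these nearest genes the 3' UTRs of DSCAM, LDLRAD3 and ADAMTS6 (for AXL) and XPO7 (for TYRO3) hold the siRNA1 word. So do those of PPP1R18 and ELOA (for MERTK) and RAB18 (for PROS1), and that of LDLRAD3 holds the siRNA2 word too. LINC00707 has no annotated 3' UTR, and the other nearest genes hold neither word. Over all tested genes with a 3' UTR 17.9% hold the siRNA1 word and 5.8% the siRNA2 word. Words and nearest genes were picked on the same libraries, so this is no separate evidence.

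Other genes of TAM biology were followed in 7 lists with 90 genes, of which 84 were tested. The others (STAB1, ADGRB1, MEGF10, CD36, TWIST1 and PDGFRA) had at most 6 counts in any library. With siRNA2 38 of the 84 rose and 20 fell, so 69% passed, against 56.1% of all tested genes (27.2% higher, 28.9% lower). Their median log2 fold change with siRNA2 was 0.19, against -0.011 over all tested genes. With siRNA1 23 rose and 35 fell, so 69% passed, against 50.4% of all tested genes (25.1% higher, 25.3% lower). Their median with siRNA1 was -0.087, against 0.0032 over all tested genes. Of the 84 genes 16 were higher with both siRNAs, 12 lower with both and 14 in opposite directions, where the shares over all tested genes were 11.8%, 11.1% and 9.93%. Between the siRNAs 40 were higher with siRNA2 and 19 lower, so 70.2% passed, against 60.4% of all tested genes (28.4% higher, 32% lower). Named genes in each list are up to 4 that passed with both siRNAs by the larger of their smaller fold changes, and all p-values are adjusted over all tested genes in the same edgeR fit.

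**Figure D4:**
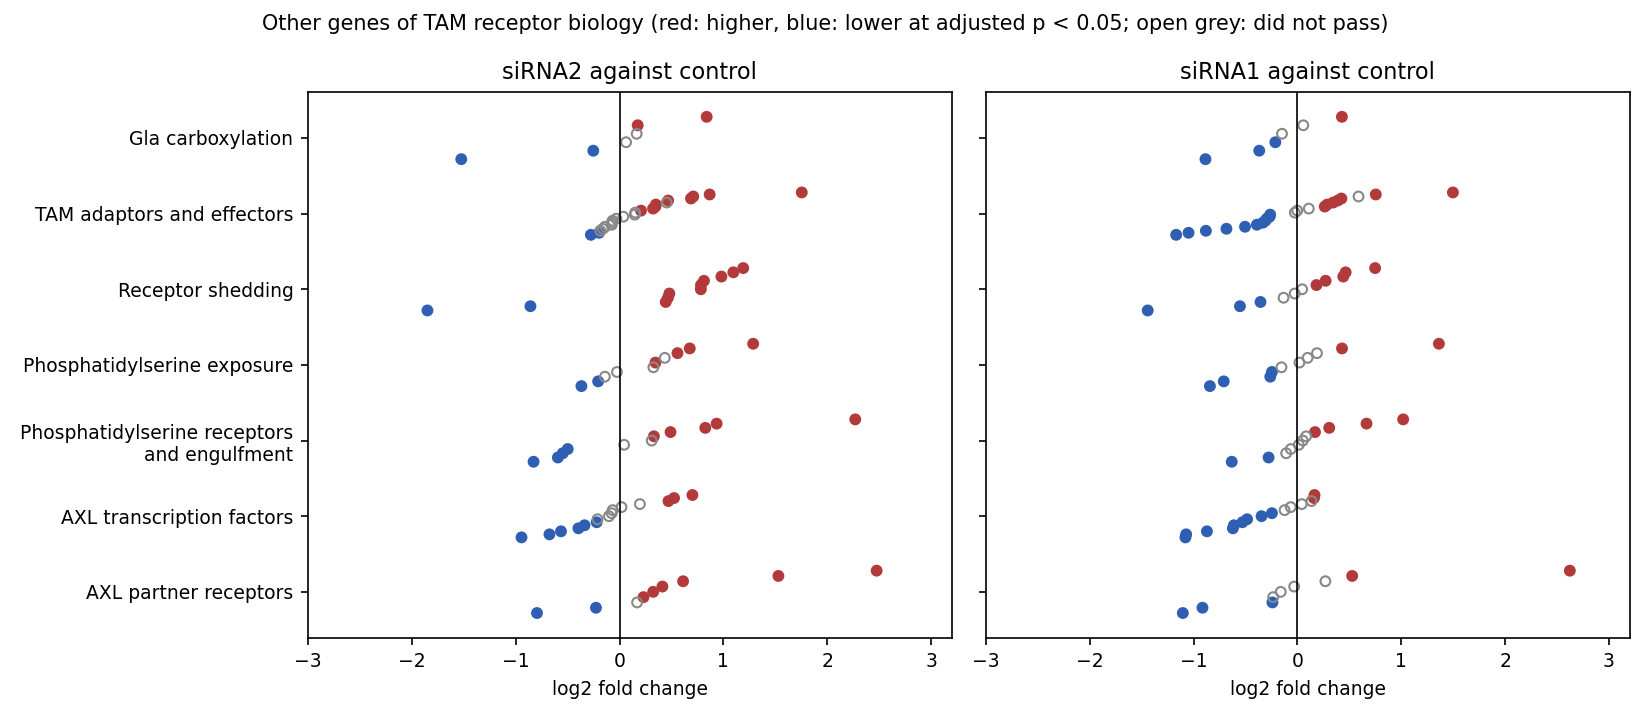
Log2 fold changes of the tested genes of 7 lists around the TAM receptors for siRNA2 against control (left) and siRNA1 against control (right), with 1 point per gene. Filled points passed an adjusted p of 0.05 (red higher, blue lower) and open points did not. In the receptor shedding list, which had the highest median of the 7 with siRNA2, 9 of 11 genes were higher with siRNA2 and 5 of 11 with siRNA1. Over all tested genes 27.2% were higher with siRNA2 and 25.1% with siRNA1.

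The receptor shedding list, which holds the proteases that cut the outer part off TAM receptors and the gamma-secretase that cuts what remains, had the highest median of the 7 lists with siRNA2. There 9 of 11 genes rose and 2 fell with siRNA2 (median log2 fold change 0.78), and 5 rose and 3 fell with siRNA1 (median 0.045). The share that passed was 100% with siRNA2, against 56.1% of all tested genes (27.2% higher, 28.9% lower). With siRNA1 it was 72.7%, against 50.4% (25.1% higher, 25.3% lower). ADAM10, a metalloprotease known to cleave AXL, averaged 178 ± 8.32 CPM with siRNA2, 37.9 ± 2.93 CPM with siRNA1 and 103 ± 7.35 CPM in control libraries. It rose with siRNA2 (log2 fold change 0.78, adjusted p = 4.45e-10) and fell with siRNA1 (-1.44, adjusted p = 2.86e-14), a difference between the siRNAs of 2.23 (adjusted p = 2.85e-18). APH1B, a subunit of gamma-secretase, rose with siRNA2 (1.19, adjusted p = 2.28e-10) and with siRNA1 (0.75, adjusted p = 1.22e-06). PSENEN, another subunit, averaged 5.42 ± 0.621 CPM with siRNA2, 27.1 ± 1.45 CPM with siRNA1 and 19.6 ± 1.57 CPM in control libraries, so it fell with siRNA2 (-1.85, adjusted p = 1.25e-12) and rose with siRNA1 (0.46, adjusted p = 0.000307). TIMP3, an inhibitor of these proteases, rose with siRNA2 (0.78, adjusted p = 1.92e-10) and fell with siRNA1 (-0.55, adjusted p = 1.57e-07), so protease and inhibitor were both among the genes that rose with siRNA2. The 3' UTRs of ADAM10 and TIMP3 hold the siRNA1 word and that of PSENEN the siRNA2 word.

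Among 6 genes of Gla carboxylation, the vitamin K cycle that equips GAS6 and PROS1 for phosphatidylserine, 2 rose and 2 fell with siRNA2 (median log2 fold change 0.11) and 1 rose and 3 fell with siRNA1 (median -0.18). With either siRNA 66.7% passed, against 56.1% of all tested genes with siRNA2 and 50.4% with siRNA1. VKORC1L1, a vitamin K epoxide reductase, averaged 15.0 ± 0.583 CPM with siRNA2, 23.3 ± 1.18 CPM with siRNA1 and 43.2 ± 3.14 CPM in control libraries. It fell with siRNA2 (-1.52, adjusted p = 3.13e-13) and with siRNA1 (-0.89, adjusted p = 3.98e-09), and its 3' UTR holds the siRNA1 word. CALU, an endoplasmic reticulum protein that restrains this carboxylation, averaged 612 ± 5.5 CPM with siRNA2, 295 ± 24.9 CPM with siRNA1 and 342 ± 15.5 CPM in control libraries. CALU rose with siRNA2 (0.84, adjusted p = 1.15e-11) and fell with siRNA1 (-0.21, adjusted p = 0.00429). NQO1, a quinone reductase, rose with siRNA2 (0.17, adjusted p = 0.0045) and siRNA1 (0.43, adjusted p = 1.14e-07). VKORC1, the main vitamin K epoxide reductase of liver, fell with siRNA2 (-0.25, adjusted p = 0.0414) and siRNA1 (-0.37, adjusted p = 0.00518). Its siRNA2 call was lost in 11 of 17 alternatives, which include leaving out control replicate 2 (adjusted p = 0.0579), control replicate 3 (0.354) or siRNA2 replicate 1 (0.0852), 2 (0.0787) or 3 (0.0994), so the count of genes lower with siRNA2 was then 1.

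Of 22 TAM adaptors and effectors 9 rose and 2 fell with siRNA2 (median log2 fold change 0.15), and 7 rose and 11 fell with siRNA1 (median -0.14). With siRNA2 50% passed, below the 56.1% of all tested genes, and with siRNA1 81.8% passed, against 50.4%. The count that fell with siRNA2 was 4 without control replicate 3 or without siRNA1 replicate 2. SOCS1, a suppressor of cytokine signalling that TAM receptors induce in immune cells, averaged 11.5 ± 0.972 CPM with siRNA2, 9.53 ± 2.4 CPM with siRNA1 and 3.41 ± 0.431 CPM in control libraries. It rose with siRNA2 (1.75, adjusted p = 3.06e-09) and with siRNA1 (1.50, adjusted p = 9.45e-08), but it overlaps RMI2 on the opposite strand, which has 194% of its reads. CBLB, a ubiquitin ligase, rose with siRNA2 (0.87, adjusted p = 0.000203) and siRNA1 (0.75, adjusted p = 0.00125). SRC, a kinase downstream of AXL, averaged 92.5 ± 1.46 CPM with siRNA2, 35.2 ± 0.716 CPM with siRNA1 and 56.6 ± 2.84 CPM in control libraries. It rose with siRNA2 (0.71, adjusted p = 1.57e-09) and fell with siRNA1 (-0.68, adjusted p = 1.07e-08), and its 3' UTR holds the siRNA1 word. SOCS3 also rose with siRNA2 (0.69, adjusted p = 1.16e-09) and fell with siRNA1 (-0.51, adjusted p = 4.75e-07).

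Of 10 genes that expose phosphatidylserine or return it to the inner leaflet, 4 rose and 2 fell with siRNA2 (median log2 fold change 0.34), and 2 rose and 4 fell with siRNA1 (median -0.068). With either siRNA 60% passed, near the 56.1% of all tested genes with siRNA2 and above the 50.4% with siRNA1. XKR8, a scramblase of dying cells, averaged 53.5 ± 4.84 CPM with siRNA2, 29.5 ± 0.958 CPM with siRNA1 and 21.9 ± 1.12 CPM in control libraries, and rose with siRNA2 (1.29, adjusted p = 3.04e-12) and siRNA1 (0.43, adjusted p = 0.000231). ATP8A1, a flippase, rose with siRNA2 (0.68, adjusted p = 0.00835) and with siRNA1 (1.36, adjusted p = 3.38e-06), the siRNA2 call being lost without control replicate 2 (adjusted p = 0.0574), and its 3' UTR holds the siRNA1 word. TMEM30A, the partner subunit of flippases, averaged 259 ± 5.41 CPM with siRNA2, 108 ± 4.21 CPM with siRNA1 and 176 ± 9.18 CPM in control libraries. It rose with siRNA2 (0.56, adjusted p = 1.02e-08) and fell with siRNA1 (-0.71, adjusted p = 3.24e-10). ATP11A, another flippase, was near the threshold with siRNA2 (-0.21, adjusted p = 0.0481) and siRNA1 (-0.25, adjusted p = 0.0223), with libraries that overlapped the control libraries. Its siRNA2 call was lost in 11 of 17 alternatives and its siRNA1 call in 5. The count of genes lower with siRNA2 was 1 without control replicate 1 or 2, siRNA1 replicate 1, or siRNA2 replicate 1 or 3.

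Of 15 phosphatidylserine receptors and engulfment genes 11 were tested, of which 5 rose and 4 fell with siRNA2 (median log2 fold change 0.31), and 4 rose and 2 fell with siRNA1 (median 0.052). With siRNA2 81.8% passed, against 56.1% of all tested genes, and with siRNA1 54.5%, near the 50.4% of all tested genes. MFGE8, a bridge from phosphatidylserine to integrins, averaged 106 ± 5.21 CPM with siRNA2, 74.0 ± 3.71 CPM with siRNA1 and 59.9 ± 1.98 CPM in control libraries, and rose with siRNA2 (0.83, adjusted p = 1.25e-10) and siRNA1 (0.31, adjusted p = 0.000508). Its integrin partners differed in direction. ITGAV fell with siRNA2 (-0.50, adjusted p = 3.68e-06) and siRNA1 (-0.63, adjusted p = 1.53e-07), while ITGB5 rose with siRNA2 (0.49, adjusted p = 1.74e-07) and siRNA1 (0.67, adjusted p = 1.47e-09). ITGB3 rose at a low level, at 4.22 ± 0.208 CPM with siRNA2, 1.75 ± 0.262 CPM with siRNA1 and 0.865 ± 0.228 CPM in control libraries (log2 fold change 2.27, adjusted p = 3.48e-08 with siRNA2, and 1.02, adjusted p = 0.00451 with siRNA1). The count that fell with siRNA1 was 1 without control replicate 1, siRNA1 replicate 1 or siRNA1 replicate 3. The 3' UTR of ITGAV holds the siRNA2 word and that of ITGB3 the siRNA1 word.

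Of 16 transcription factors known to act on AXL 15 were tested, and more of them fell than rose. With siRNA2 3 rose and 6 fell (median log2 fold change -0.10), and with siRNA1 2 rose and 9 fell (median -0.35). With siRNA2 60% passed, near the 56.1% of all tested genes (27.2% higher, 28.9% lower). With siRNA1 73.3% passed, against 50.4% (25.1% higher, 25.3% lower). FOSL1, the most abundant AP-1 member of the list, averaged 485 ± 28.6 CPM with siRNA2, 611 ± 28.3 CPM with siRNA1 and 934 ± 38.8 CPM in control libraries. FOSL1 fell with siRNA2 (-0.94, adjusted p = 5.68e-13) and siRNA1 (-0.61, adjusted p = 1.94e-09), the reverse of the order of AXL between the siRNAs, being lower with siRNA2 than with siRNA1 (-0.33, adjusted p = 1.62e-05). ZEB1, a factor of mesenchymal cells, fell with siRNA2 (-0.40, adjusted p = 6.17e-05) and siRNA1 (-0.87, adjusted p = 6.39e-10), and it overlaps genes whose largest holds 9.23% of its reads. STAT3 averaged 293 ± 4.01 CPM with siRNA2, 101 ± 3.09 CPM with siRNA1 and 212 ± 13.4 CPM in control libraries, so it rose with siRNA2 (0.47, adjusted p = 1.6e-07) and fell with siRNA1 (-1.07, adjusted p = 1.56e-13). SNAI2 also rose with siRNA2 (0.53, adjusted p = 0.000181) and fell with siRNA1 (-1.08, adjusted p = 7.33e-08). The 3' UTRs of ZEB1 and STAT3 hold the siRNA1 word. The 2 genes that rose with siRNA1 were FOSL2 and WWTR1, named after their values were seen, and that count was 1 without control replicate 2, siRNA1 replicate 1 or any siRNA2 replicate, and 0 without control replicate 3, siRNA1 replicate 2 or siRNA1 replicate 3.

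Of 10 receptors known to pair or signal with AXL 9 were tested. With siRNA2 6 rose and 2 fell (median log2 fold change 0.32), and with siRNA1 2 rose and 3 fell (median -0.16). With siRNA2 88.9% passed, against 56.1% of all tested genes, and with siRNA1 55.6%, near the 50.4% of all tested genes. EGFR averaged 287 ± 11.2 CPM with siRNA2, 231 ± 15.9 CPM with siRNA1 and 497 ± 92.0 CPM in control libraries, falling with siRNA2 (-0.80, adjusted p = 2.84e-08) and siRNA1 (-1.10, adjusted p = 1.48e-10). PDGFRB rose at a low level, at 6.84 ± 0.538 CPM with siRNA2, 7.57 ± 0.493 CPM with siRNA1 and 1.23 ± 0.424 CPM in control libraries (log2 fold change 2.48, adjusted p = 2.03e-10 with siRNA2, and 2.62, adjusted p = 8.6e-11 with siRNA1). KDR, a receptor of vascular endothelial growth factor, averaged 10.3 ± 0.549 CPM with siRNA2, 1.87 ± 0.195 CPM with siRNA1 and 3.54 ± 0.322 CPM in control libraries. KDR rose with siRNA2 (1.53, adjusted p = 3.33e-09) and fell with siRNA1 (-0.92, adjusted p = 0.000267). IGF1R rose with siRNA2 (0.32, adjusted p = 0.00205) and siRNA1 (0.53, adjusted p = 1.13e-05). The count that fell with siRNA2 was 1 without control replicate 2, control replicate 3 or any siRNA2 replicate, since IL15RA was near the threshold (-0.23, adjusted p = 0.0332). The 3' UTR of PDGFRB holds the siRNA2 word and that of IGF1R both words.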

How the data were processed

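RNA of 9 MDA-MB-231 libraries was analysed, 3 each with MILIP siRNA2, MILIP siRNA1 and control siRNA, with groups taken from the treatment labels. The deposited counts per gene and library were made by the authors. Trimmomatic 0.30, HISAT2 2.0.1, HTSeq 0.6.1 and DESeq are named in the submitters' processing notes, with no step given. The deposited FPKM values are the authors', and 100% were recomputed from count, exonic size and library total within 0.005. The notes name hg19, but 99.9% of 58394 identifiers lie at GENCODE v29 GRCh38 positions.

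The filterByExpr function (a minimum count of 10 and a minimum total of 15) left 15345 genes. After TMM scaling all 3 groups entered 1 fit, and edgeR's quasi-likelihood F test was two-sided, Benjamini-Hochberg adjusted over these genes, with a threshold of 0.05. They hold 99.87% of counts, and 45267 were not tested. Levels are TMM-scaled CPM, which compare libraries, and FPKM, which compare genes by their exonic size and not by the length of the transcripts present. Tools were edgeR 4.0.16, DESeq2 1.42.0 and limma 3.58.1 in R 4.3.3, and pandas 2.3.3, numpy 2.4.6 and matplotlib 3.10.9 in Python 3.11.15. The fit was tested on simulated data. No 2 libraries were identical (chi-square per gene 2.17 to 8.54 within groups).

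Members and lists were chosen with earlier results of these data known. Named are the members, MILIP, transcripts that could share members' reads, up to 4 genes per list called with both siRNAs, and the nearest genes in pattern with a mean of at least 1 CPM. Results were recomputed with each library left out, with the compared groups alone, with a replicate block, with limma on log2 FPKM (pseudocount 1 or 0.1), with DESeq2, with its scaling in edgeR, with no filter, and with a minimum mean FPKM of 1.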

Additional observations from a re-analysis of the deposited data

How the results depend on the processing

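Over 17 alternatives the direction of AXL, MERTK and PROS1 against control and of AXL, TYRO3, GAS6 and PROS1 between the siRNAs did not change. With limma on log2(FPKM+1), which understates changes of low values, the log2 fold change against control was 0.63 for PROS1 with siRNA2, and -3.19 for AXL, -0.65 for TYRO3 and -0.60 for MERTK with siRNA1. With limma on log2(FPKM+0.1) TYRO3 was at -0.94 with siRNA1. The siRNA2 against siRNA1 difference of MERTK ranged from -0.014 to 0.15 when 1 library was left out, and was negative without siRNA1 replicate 3, a difference whose cause was not tested. The replicate numbers of the labels did not pair the libraries: deviations of same-numbered libraries correlated at -0.0508 to 0.0969, and 6 of 18 were highest with their own number. With the replicate block 4171 genes were higher and 4433 lower with siRNA2 against control (4172 and 4434 without it), 3849 and 3901 with siRNA1 (3852 and 3886), and 4385 and 4909 with siRNA2 against siRNA1 (4360 and 4911), and AXL stood at -1.88, -3.28 and 1.40. Counts of small lists rest on genes near the threshold. Depth limits genes of few counts, such as GAS6-AS1, more than the members, whose lowest count was 227.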

Other observations

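The genes next to the members were looked at after the members' values were known. Within 100 kb of AXL 8 genes were tested, and 1 of them passed in the same direction with siRNA2 and siRNA1, by edgeR, where 11.8% of all tested genes were higher and 11.1% lower with both. It was HNRNPUL1, an RNA-binding protein gene that lies 730 bases from AXL on the same strand. HNRNPUL1 averaged 321 ± 7.98 CPM with siRNA2, 366 ± 1.78 CPM with siRNA1 and 455 ± 16.1 CPM in control libraries (log2 fold change -0.50, adjusted p = 1.11e-08 with siRNA2, and -0.31, adjusted p = 1.93e-05 with siRNA1). TGFB1, which encodes a growth factor of mesenchymal change, averaged 100.5 ± 8.45 CPM with siRNA2, 46.2 ± 6.19 CPM with siRNA1 and 49.7 ± 0.681 CPM in control libraries. TGFB1 rose with siRNA2 (1.01, adjusted p = 1.63e-10) and did not pass with siRNA1 (-0.11, adjusted p = 0.315), and it overlaps HNRNPUL1 and CCDC97 on the opposite strand. The largest of the genes that TGFB1 overlaps has 568% of the TGFB1 reads, and reads in overlapping stretches could belong to either gene.

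RPAP1, 13406 bases from TYRO3, fell with siRNA2 (log2 fold change -0.38, adjusted p = 0.000208, edgeR) and siRNA1 (-0.33, adjusted p = 0.000979). LTK, a receptor tyrosine kinase gene farther away, at 43788 bases from TYRO3, rose with siRNA2 (log2 fold change 1.82, adjusted p = 1.85e-12) and siRNA1 (0.47, adjusted p = 0.00372). ANAPC1, 13917 bases from MERTK, fell with siRNA2 (-0.82, adjusted p = 2.35e-07) and did not pass with siRNA1 (-0.23, adjusted p = 0.0629). TMEM87B, 25708 bases from MERTK, rose with siRNA2 (1.07, adjusted p = 2.25e-12) and siRNA1 (0.50, adjusted p = 1.57e-06). TMEM255B, 3554 bases from GAS6 on the opposite strand, averaged 47.6 ± 3.11 CPM with siRNA2, 27.1 ± 2.51 CPM with siRNA1 and 27.4 ± 1.28 CPM in control libraries, highest with siRNA2 as were GAS6 and GAS6-DT. TMEM255B rose with siRNA2 (0.80, adjusted p = 1.62e-08) and did not pass with siRNA1 (-0.013, adjusted p = 0.919).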
